A study of Mus musculus with 6 samples.

Results

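Amino acids enter and leave cells through membrane transporters of several solute carrier families. The genes described here are the mouse genes whose annotated symbol places them in the Slc1, Slc3, Slc6, Slc7, Slc36, Slc38 or Slc43 family. A gene was read from 1 probe set, that of its single-symbol probe sets with the highest mean over all arrays, and 58 of the 18193 genes measured in this way were members. They held 7 Slc1, 2 Slc3, 18 Slc6, 15 Slc7, 4 Slc36, 9 Slc38 and 3 Slc43 genes.

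The RNA came from cells grown out of bone marrow of C57BL/6 mice and was read on 6 Affymetrix arrays, 2 per group. GM-MPP carry the label of multipotent progenitors, a cell type not yet committed to 1 blood lineage. They were cultured in stem cell cytokines and the myeloid growth factor GM-CSF. The GM-DC group holds dendritic cells, which present antigen to T cells, derived from GM-MPP with GM-CSF, and GM-TNFa-DC were derived from GM-MPP with GM-CSF together with the inflammatory cytokine TNFa. All groups share the strain and GM-CSF, and no genotype other than the strain and no age is given. The labels number the arrays of each group 1 and 2 without saying whether they came from separate cultures or animals, so p-values cover only the spread among these samples, possibly technical.

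Members of these families differ in what they carry and how. Slc3 proteins are heavy chains that bring a light chain of the Slc7 family to the cell surface, while the cationic transporters of Slc7 work alone and take up arginine and lysine. Slc1, Slc6 and Slc38 proteins mostly use the sodium gradient, several Slc36 proteins use protons, and Slc43 proteins let large neutral amino acids pass down their gradient. In immune cells such transporters supply growth and the mTORC1 pathway, and in myeloid cells they also supply arginine to arginase and nitric oxide synthase and cystine for glutathione.

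Values are log2 expression levels made with RMA, a method that scales the arrays to 1 common distribution, and array medians lay between 4.67 and 4.77. A gene with a mean under 5 over the 6 arrays was read as dim, because its level lies near the background of such arrays and its differences are compressed. Of the 58 members 22 were dim (37.9%, against 41.1% of all genes), among them 10 of the 18 Slc6 genes and none of the Slc36 and Slc43 genes. Of these 22 dim members, 20 stayed under 5 on every array. Of the 36 other members, the lowest value on any array was 4.19 and the highest was 12.01.

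The labelled cell types were checked against markers. On GM-MPP 1 and 2, 13 neutrophil markers had summed linear levels of 100531 and 115571, and 12 progenitor markers of 18238 and 23508. The word progenitors therefore follows the label here. Of 15 dendritic cell markers 11 rose and 1 (Flt3) fell in GM-DC against GM-MPP, and of 12 progenitor markers 8 fell (limma). The differences of 3 other progenitor markers lay above 0, without a call. The summed linear level of the dendritic markers ranged from 994 to 1370 on the GM-MPP arrays, but it was 58167 on GM-DC 1, 80659 on GM-TNFa-DC 1, 21056 on GM-DC 2 and 27404 on GM-TNFa-DC 2. The dendritic cell arrays thus fell apart by number: with the group in the model, 12 of the 15 dendritic markers were lower on number 2 and 18 of 19 proliferation genes were higher there. Of the 12 progenitor markers 1 was higher on number 2, Gfi1 (1.41), and 3 were lower, among them Kit (-3.29). Control transcripts added before labelling were lower on number 2 in each group in all 24 of their probe sets, with a median log2 difference of -1.28 in GM-MPP, -1.09 in GM-DC and -1.37 in GM-TNFa-DC. For the transporter genes described, the level on each array or the difference within each number is therefore given, and in bulk RNA fewer cells of a type and less RNA per cell cannot be told apart.

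Promoter sequences from RefSeq (GRCm38.p6, 250 bases before to 50 bases after a gene's start, in the gene's direction) were held for 41 of the 58 members. Slc36a4 and Slc38a6 are shown because both rose in the dendritic cells. Slc7a11 and Slc7a7 are shown because they hold more than 1 copy of TGATGNAA, the core of the amino acid response element through which ATF4 acts, set in capitals.

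Slc36a4, chr9:15709488-15709787, plus strand: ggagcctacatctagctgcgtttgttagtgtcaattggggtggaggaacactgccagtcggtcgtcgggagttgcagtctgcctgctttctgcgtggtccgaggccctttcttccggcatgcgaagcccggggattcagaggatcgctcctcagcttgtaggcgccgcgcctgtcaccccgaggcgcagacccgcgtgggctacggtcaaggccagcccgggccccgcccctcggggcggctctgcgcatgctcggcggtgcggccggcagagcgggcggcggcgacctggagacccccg
Slc38a6, chr12:73286598-73286897, plus strand: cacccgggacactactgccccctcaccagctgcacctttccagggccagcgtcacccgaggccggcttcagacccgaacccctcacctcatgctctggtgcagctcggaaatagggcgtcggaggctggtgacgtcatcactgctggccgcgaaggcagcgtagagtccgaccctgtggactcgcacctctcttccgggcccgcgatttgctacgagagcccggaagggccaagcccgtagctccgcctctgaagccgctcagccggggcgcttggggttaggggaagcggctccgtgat
Slc7a11, chr3:50443564-50443863, minus strand: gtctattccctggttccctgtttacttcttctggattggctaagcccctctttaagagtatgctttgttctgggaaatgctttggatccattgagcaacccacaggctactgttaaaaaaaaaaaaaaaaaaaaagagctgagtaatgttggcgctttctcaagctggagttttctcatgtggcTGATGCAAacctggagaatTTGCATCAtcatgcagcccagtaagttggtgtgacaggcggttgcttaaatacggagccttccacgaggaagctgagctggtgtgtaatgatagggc
Slc7a7, chr14:54417895-54418194, minus strand: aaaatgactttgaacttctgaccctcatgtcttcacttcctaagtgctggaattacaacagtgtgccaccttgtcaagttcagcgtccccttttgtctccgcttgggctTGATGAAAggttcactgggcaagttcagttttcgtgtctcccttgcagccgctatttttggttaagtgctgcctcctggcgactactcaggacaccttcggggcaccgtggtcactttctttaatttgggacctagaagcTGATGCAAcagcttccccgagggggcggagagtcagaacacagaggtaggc

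In the Slc7a11 window the motif began 66 bases before the start on the gene's strand and 47 bases before it on the other strand. Counting both strands, TGATGNAA was in 5 of 62 member promoters of 4 genes (Slc7a11, Slc7a7, Slc1a4 and Slc6a21), or 8.06%, against 3.97% of 32851 promoters of all genes. The antioxidant response element core TGACNNNGC was in 17.7% of member promoters against 12.4% of all, and the E-box CACGTG was in 14.5% against 7.15%. The 3 motifs were counted separately and can overlap, and some genes have several overlapping promoters. A match describes these letters and is no binding site by itself.

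The first comparison asks how transporter genes differ between progenitors and dendritic cells grown from them. In GM-DC 3 of the 58 members rose, Slc7a2, Slc38a6 and Slc36a4, and 1 fell, Slc1a5. By the same rule 4.5% of all 18193 genes were called and 6.9% of the members (1.87% of all genes and 5.17% of members higher, 2.63% and 1.72% lower; limma with Benjamini-Hochberg adjustment over all genes, threshold 0.05). Among genes that were not dim, 4 of 36 members (11.1%) and 6.58% of all genes were called. The arrays of both groups lay apart for 16 members in the higher direction (27.6%, against 28.3% of all genes) and for 13 in the lower (22.4%, against 27%), so the members' shares lay near or below those of all genes. The median log2 difference over the 58 members was 0.10, and over all genes it was 0.02.

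Slc7a2 encodes a cationic transporter that takes up arginine. Its level was 5.54 and 5.73 on GM-MPP 1 and 2, 10.48 and 11.37 on the GM-DC arrays, and 10.59 and 12.01 on the GM-TNFa-DC arrays. Every dendritic cell array lay above both progenitor arrays, and in each dendritic group number 2 was the higher. GM-DC minus GM-MPP was 5.29 ± 0.53 (moderated SE), or 39.2-fold (limma adjusted p = 0.0120), with 4.94 on number 1 and 5.64 on number 2. GM-TNFa-DC minus GM-MPP was 5.66 ± 0.53, or 50.7-fold (limma adjusted p = 0.00847). These comparisons share the GM-MPP arrays, as do all pairs of such values below. All 4 probe sets of Slc7a2 were higher in GM-DC, by 3.46 to 5.47. The call was lost without GM-MPP 1 (limma adjusted p = 0.106), GM-MPP 2 (0.0957) or GM-DC 2 (0.0564), and the difference stayed between 4.85 and 5.74.

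The other cationic transporters of the family lay the opposite way, and neither passed the test. Slc7a1, the widely expressed arginine and lysine transporter, was at 9.91 and 10.13 in GM-MPP, 9.33 and 7.59 in GM-DC, and 9.49 and 7.57 in GM-TNFa-DC. All 4 dendritic cell arrays lay below the progenitors, the number-2 arrays by more. GM-DC minus GM-MPP was -1.56 ± 0.79 (limma adjusted p = 0.331), made up of -0.59 on number 1 and -2.54 on number 2. Slc7a3 was at 5.40 and 7.26 in GM-MPP and between 4.31 and 4.67 on the dendritic cell arrays, with a difference of -1.80 ± 0.58 (limma adjusted p = 0.158). The groups did not overlap, but the progenitor arrays of Slc7a3 differed from each other by more than any of its dendritic arrays did. Without GM-MPP 1, Slc7a3 was the only member called lower in GM-TNFa-DC against GM-MPP.

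**Figure D1:**
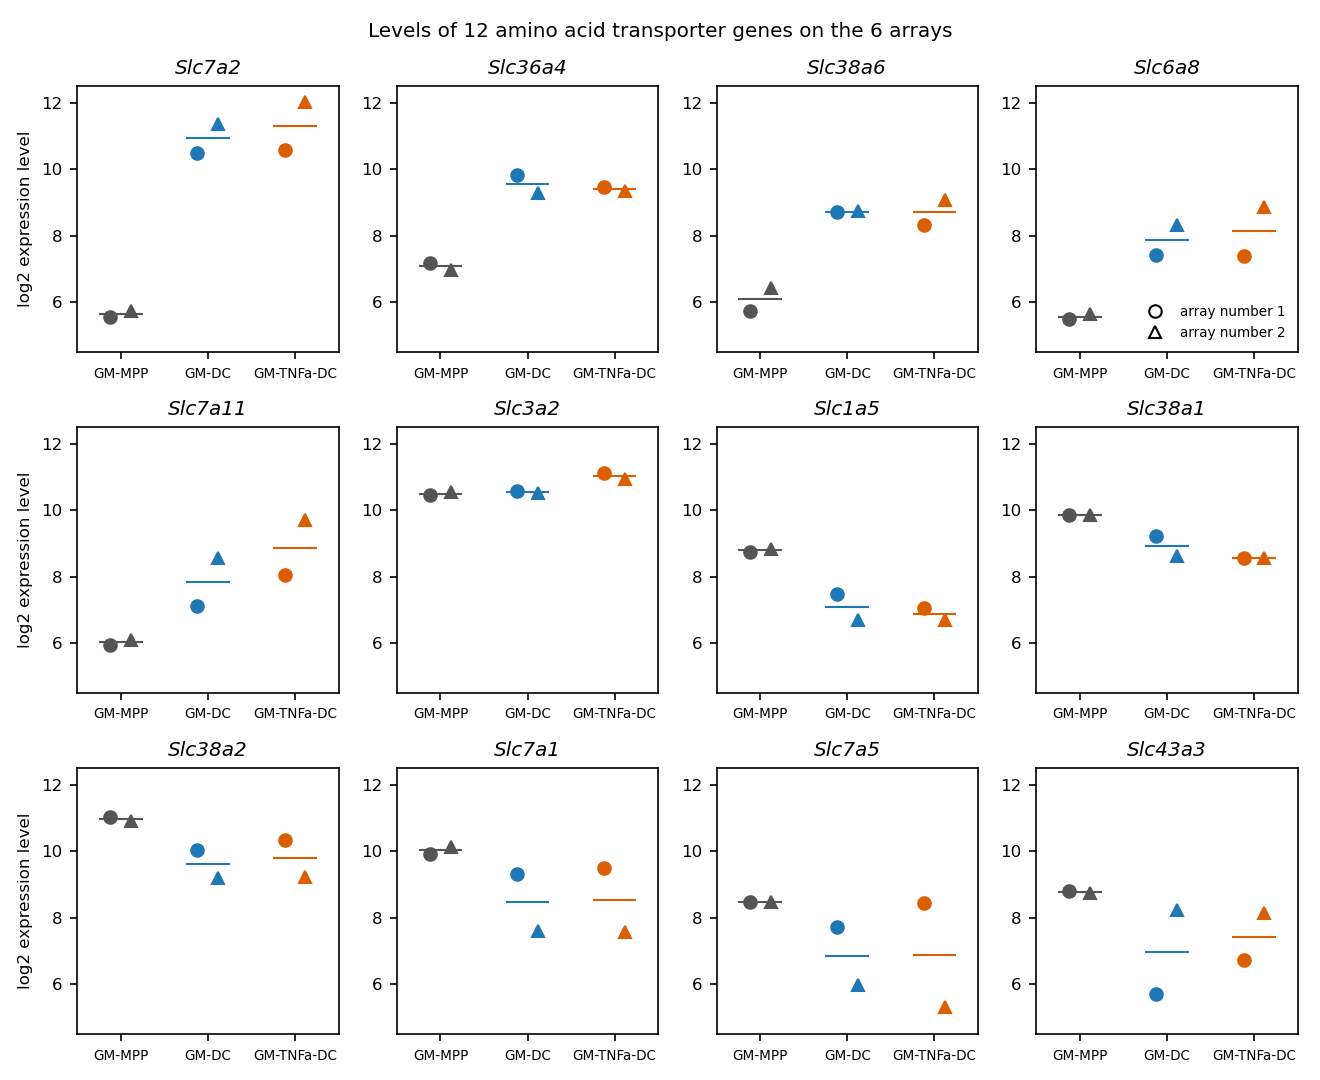
Log2 expression level (y axis) of 12 transporter genes on each of the 6 arrays, by group (x axis), with circles for array number 1, triangles for number 2 and a line at the group mean. Slc7a2, Slc36a4 and Slc38a6 lie higher on all 4 dendritic cell arrays than on the progenitor arrays, Slc1a5 and Slc38a1 lie lower, and Slc7a5, Slc7a1 and Slc43a3 are split by array number.

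Slc38a6, of the family of sodium coupled neutral transporters, and Slc36a4, a transporter with high affinity for proline and tryptophan, rose in both kinds of dendritic cell. Slc38a6 was at 5.73 and 6.43 in GM-MPP, 8.70 and 8.75 in GM-DC, and 8.32 and 9.08 in GM-TNFa-DC. The lowest dendritic cell array lay above the highest progenitor array. The difference from GM-MPP was 2.64 ± 0.36, or 6.23-fold, in GM-DC (limma adjusted p = 0.0238, 2.96 on number 1 and 2.32 on number 2) and 2.62 ± 0.36 in GM-TNFa-DC (0.0201). A second, dim probe set of Slc38a6 was higher in GM-DC by 0.60, and with the mean of both the difference was 1.62 and still passed. The Slc38a6 call in GM-DC was lost without GM-MPP 1 (limma adjusted p = 0.149), GM-MPP 2 (0.0932), GM-DC 1 (0.110) or GM-DC 2 (0.101).

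Slc36a4 was at 7.19 and 6.97 in GM-MPP, 9.81 and 9.27 in GM-DC, and 9.45 and 9.34 in GM-TNFa-DC. All 4 dendritic cell arrays lay close together and well above both progenitor arrays. The difference was 2.46 ± 0.25, or 5.51-fold, in GM-DC (limma adjusted p = 0.0125, 2.62 on number 1 and 2.30 on number 2) and 2.32 ± 0.25 in GM-TNFa-DC (0.0122). The GM-DC call was lost without GM-MPP 1 (limma adjusted p = 0.0903), GM-MPP 2 (0.101) or GM-DC 1 (0.0663). Slc36a1, the lysosomal relative of Slc36a4, was at 8.11 and 7.70 in GM-MPP and at 8.07 and 7.91 in GM-DC, where the groups overlapped (0.09 ± 0.31).

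Slc1a5, the sodium coupled exchanger that takes up glutamine, fell. Its level was 8.75 and 8.83 in GM-MPP, 7.47 and 6.70 in GM-DC, and 7.05 and 6.69 in GM-TNFa-DC. The dendritic cell arrays were all lower than the progenitors, which lay close together. The difference was -1.70 ± 0.31 in GM-DC (limma adjusted p = 0.0467, -1.28 on number 1 and -2.12 on number 2) and -1.92 ± 0.31 in GM-TNFa-DC (0.0287). The GM-DC call lay close to the threshold. It was lost on repeated quantile normalization (limma adjusted p = 0.0567) and on median centring (0.0521). In both, 3 members were higher and 0 lower. The call was also lost with the mean of both probe sets (a difference of -1.01) and when only the 4 arrays compared were fitted. It was lost, too, whichever of the 6 arrays was left out (differences from -2.08 to -1.31). The second probe set of Slc1a5 was dim and differed by -0.33. Slc1a4, its closest relative and a carrier of alanine, serine and cysteine, ran from 5.16 to 6.79 over all arrays with the groups overlapping (0.05 ± 0.54, the sign of which changed with the scaling).

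The other transporters that load cells with glutamine and small neutral amino acids, Slc38a1 and Slc38a2, are neighbours on chromosome 15 with no protein-coding gene between them. Slc38a1 was at 9.84 and 9.87 in GM-MPP, 9.24 and 8.60 in GM-DC, and 8.56 and 8.57 in GM-TNFa-DC. Both dendritic groups lay below the progenitors, and only against GM-TNFa-DC did the gene pass the test; the difference between these differences is the TNFa comparison below, which did not pass. Slc38a1 minus GM-MPP was -0.93 ± 0.26 in GM-DC (limma adjusted p = 0.118) and -1.29 ± 0.26 in GM-TNFa-DC (0.0470, with -1.29 on number 1 and -1.30 on number 2). The latter call was lost on median centring (limma adjusted p = 0.0507) and without any 1 of GM-MPP 1, GM-MPP 2, GM-DC 1, GM-TNFa-DC 1 or GM-TNFa-DC 2 (adjusted p from 0.0502 to 0.246). Slc38a2, which starved cells induce through ATF4, was at 11.02 and 10.91 in GM-MPP, 10.02 and 9.19 in GM-DC, and 10.35 and 9.21 in GM-TNFa-DC. Its groups did not overlap, and its difference of -1.36 ± 0.46 in GM-DC did not pass (limma adjusted p = 0.169). In a second probe set of Slc38a2 that was not dim, GM-DC (8.95 and 8.17) lay below GM-MPP (9.19 and 9.40). There GM-TNFa-DC 1 (9.65) lay above both GM-MPP arrays and GM-TNFa-DC 2 (8.47) below them. Slc38a9, the arginine sensor of the lysosome, was higher in GM-DC in 7 of 7 probe sets, with 6.99 and 7.08 in GM-MPP, 8.04 and 7.33 in GM-DC, and a difference of 0.65 ± 0.28 (limma adjusted p = 0.257).

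Of the heavy chains, Slc3a1 was dim. Slc3a2, the partner of most light chains, was at 10.45 and 10.55 in GM-MPP, 10.59 and 10.53 in GM-DC, and 11.13 and 10.95 in GM-TNFa-DC. GM-DC overlapped with the progenitors (0.06 ± 0.18), and both GM-TNFa-DC arrays lay above the other 4. Its light chains lay on both sides of the progenitors, and in the model without array number, with the 1 probe set per gene, none passed the test between groups.

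Slc7a5, the leucine exchanger that serves growing cells, was at 8.46 and 8.48 in GM-MPP, 7.71 and 5.97 in GM-DC, and 8.43 and 5.31 in GM-TNFa-DC. GM-TNFa-DC 1 was level with the progenitors, while on number 2 the differences from GM-MPP were -2.51 in GM-DC and -3.18 in GM-TNFa-DC. The pooled difference was -1.63 ± 1.08 in GM-DC (limma adjusted p = 0.450). Slc7a8, another exchanger of large neutral amino acids, lay the other way at 5.28 and 5.05 in GM-MPP, 5.41 and 6.45 in GM-DC, and 5.47 and 6.83 in GM-TNFa-DC (0.77 ± 0.54 in GM-DC, limma adjusted p = 0.475).

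Slc7a7, which exports cationic amino acids in exchange for neutral ones, was at 6.82 and 6.70 in GM-MPP, 7.81 and 7.64 in GM-DC, and 7.83 and 7.38 in GM-TNFa-DC. It was higher on every dendritic cell array, with 0.96 ± 0.23 in GM-DC (limma adjusted p = 0.0850; 0.99 on number 1 and 0.94 on number 2). Slc7a6, which does the same exchange, was at 6.94 and 7.01 in GM-MPP, 6.64 and 6.34 in GM-DC, and 6.86 and 6.30 in GM-TNFa-DC. All dendritic cell arrays lay below the progenitors, by -0.49 ± 0.26 in GM-DC (limma adjusted p = 0.344).

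Slc7a11, the cystine importer xCT that exchanges cystine for glutamate, was at 5.94 and 6.10 in GM-MPP, 7.11 and 8.56 in GM-DC, and 8.06 and 9.69 in GM-TNFa-DC. The dendritic cell arrays were all higher, and within each dendritic group number 2 was higher than number 1. The difference was 1.81 ± 0.68 in GM-DC (limma adjusted p = 0.203) and 2.86 ± 0.68, or 7.24-fold, in GM-TNFa-DC (0.0683), and its second probe set was also higher, by 2.52 and 3.58. With the mean of its probe sets Slc7a11 passed in GM-TNFa-DC (3.22, limma adjusted p = 0.0375). Its promoter, shown above, holds TGATGNAA on both strands.

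None of the 18 Slc6 genes was called between groups in the model without array number. Slc6a8, the creatine transporter, was at 5.48 and 5.64 in GM-MPP, 7.43 and 8.32 in GM-DC, and 7.39 and 8.86 in GM-TNFa-DC. Every dendritic cell array was above both progenitor arrays, and the differences of 2.31 ± 0.54 in GM-DC (limma adjusted p = 0.0797) and 2.56 ± 0.54 in GM-TNFa-DC (0.0527) missed the threshold. Slc6a8 passed in GM-DC when only the 4 arrays compared were fitted (limma adjusted p = 0.0397) and without GM-TNFa-DC 1 (0.0406) or GM-TNFa-DC 2 (0.0398), and in GM-TNFa-DC on median centring (0.0464), with dim genes left out (0.0445) and without GM-TNFa-DC 1 (0.0471).

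Slc6a6, the taurine transporter, was at 9.89 and 9.38 in GM-MPP, 10.76 and 10.34 in GM-DC, and 10.23 and 9.77 in GM-TNFa-DC. GM-DC lay apart from the progenitors by 0.91 ± 0.30 (limma adjusted p = 0.157), while GM-TNFa-DC overlapped with them. In a second probe set of Slc6a6 both GM-TNFa-DC arrays (8.44 and 9.07) lay above GM-MPP (8.10 and 7.92), and in its remaining probe sets these groups overlapped. Slc6a9, a glycine transporter, was at 7.05 and 6.70 in GM-MPP and between 5.73 and 6.06 on the dendritic cell arrays. It was lower on each of them, with -0.98 ± 0.22 in GM-DC (limma adjusted p = 0.0705, with -0.99 and -0.98 on numbers 1 and 2). The second probe set of Slc6a9, also not dim, differed by only -0.13 in GM-DC and -0.08 in GM-TNFa-DC, and there the groups overlapped.

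The Slc43 genes, carriers of large neutral amino acids except for the purine carrier Slc43a3, had no call. Slc43a1 was at 5.55 and 5.70 in GM-MPP, 4.72 and 4.93 in GM-DC, and 4.48 and 5.16 in GM-TNFa-DC, lower on all dendritic cell arrays (-0.80 ± 0.26 in GM-DC, limma adjusted p = 0.154). Slc43a3 was at 8.79 and 8.73 in GM-MPP, 5.69 and 8.23 in GM-DC, and 6.71 and 8.14 in GM-TNFa-DC. It too was below the progenitors everywhere, but by -3.09 on number 1 and -0.50 on number 2 in GM-DC (-1.80 ± 0.89, limma adjusted p = 0.316).

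**Figure D2:**
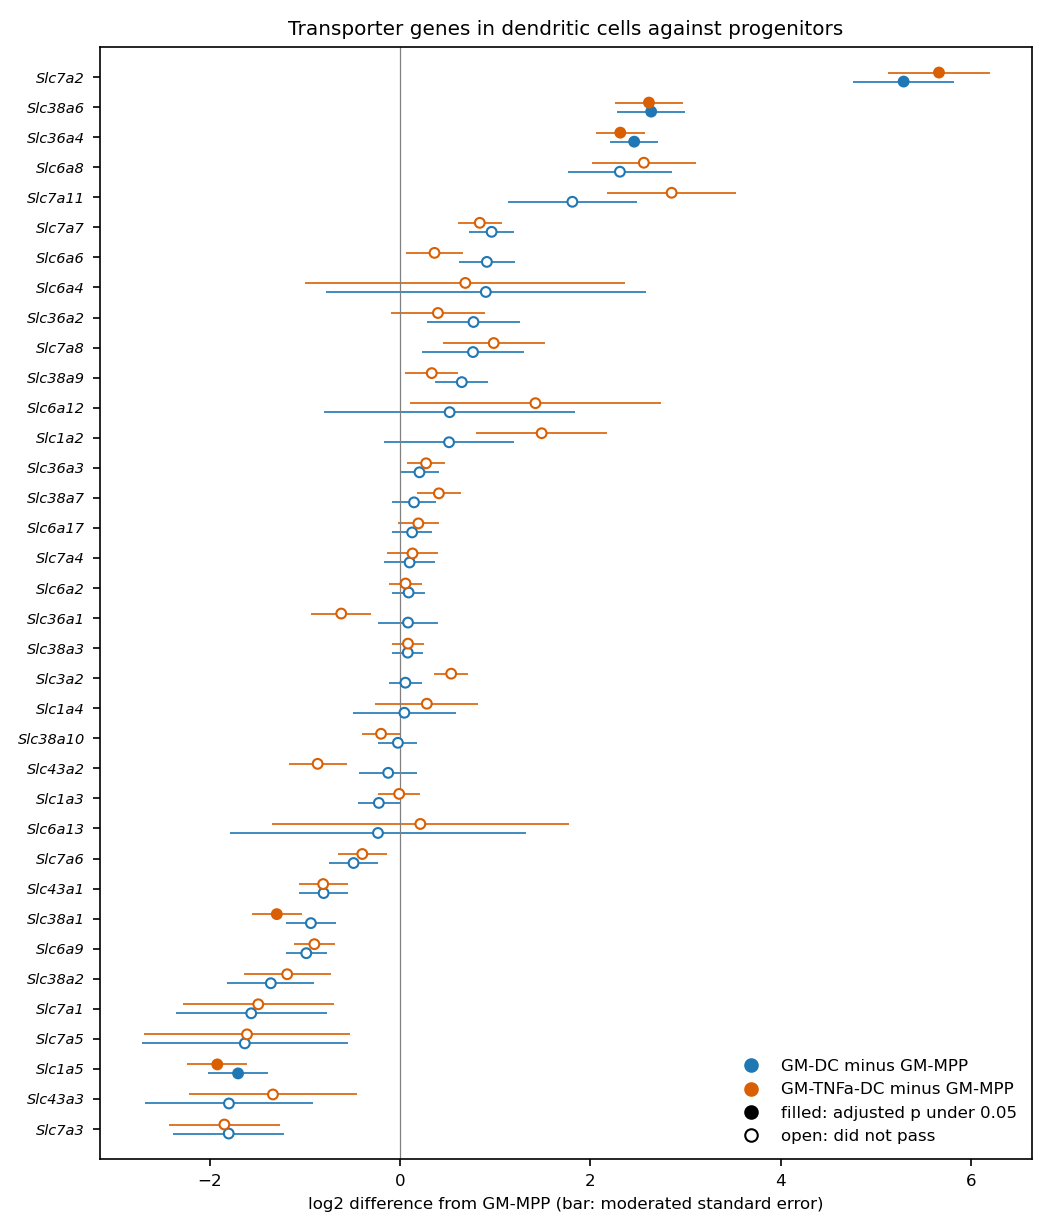
Log2 difference from GM-MPP (x axis) of the 36 transporter genes that were not dim (y axis), for GM-DC in blue and GM-TNFa-DC in orange, with bars of 1 moderated standard error and filled points where the limma adjusted p was under 0.05. Slc7a2 lies farthest from 0 at 5.29 and 5.66, and the filled points are Slc7a2, Slc38a6, Slc36a4 and Slc1a5 in both comparisons and Slc38a1 in GM-TNFa-DC.

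Against GM-MPP, GM-TNFa-DC had 3 members higher, Slc7a2, Slc38a6 and Slc36a4, and 2 lower, Slc1a5 and Slc38a1. That is 8.62% of the members, against 7.03% of all genes (2.77% of all genes higher and 4.26% lower, limma). The arrays lay apart for 19 members in the higher direction (32.8%, against 31.6% of all genes) and 13 in the lower (22.4%, against 26.1%). Leaving out 1 array gave between 0 and 4 called members in GM-DC and between 0 and 5 in GM-TNFa-DC. In GM-DC there were 0 without GM-MPP 1 or GM-MPP 2, Slc7a2 alone without GM-DC 1, and Slc36a4 alone without GM-DC 2. In GM-TNFa-DC leaving out GM-MPP 1 left 1, GM-MPP 2 left 0, GM-TNFa-DC 1 left 3 and GM-TNFa-DC 2 left 2. By gene, Slc7a2 was lost without either GM-MPP array (limma adjusted p = 0.0821 and 0.0761), Slc38a6 without GM-MPP 1 (0.132), GM-MPP 2 (0.0793) or GM-TNFa-DC 2 (0.0513), and Slc36a4 without GM-MPP 1 (0.0892), GM-MPP 2 (0.0963) or GM-TNFa-DC 1 (0.0569). Slc1a5 was lost without GM-MPP 1 (limma adjusted p = 0.178), GM-MPP 2 (0.153), GM-TNFa-DC 1 (0.0833) or GM-TNFa-DC 2 (0.0853). A group left with 1 array was taken to vary like the others. Each fit without 1 array also called fewer of all genes than the full fit, so the losses were not particular to the members.

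The second comparison asks what TNFa adds to GM-CSF. No member was called between GM-TNFa-DC and GM-DC, and 0% of all 18193 genes were (limma, lowest adjusted p = 1). At an unadjusted p under 0.05, 1 member (1.72%) stood out, Slc3a2, against 2.25% of all genes. The arrays lay apart for 8 members in the higher direction (13.8%, against 14.9% of all genes) and 6 in the lower (10.3%, against 10.6%). Of the 58 members, 21 were higher with TNFa on both array numbers (36.2%, against 30.9%) and 9 lower on both (15.5%, against 26.3%), and the median difference was 0.07.

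Slc3a2 was 0.48 ± 0.18 higher with TNFa, by 0.54 on number 1 and 0.42 on number 2 (limma adjusted p = 1). Slc7a11 was 1.04 ± 0.68 higher, by 0.95 and 1.13, and Slc1a2, a glutamate transporter, was 0.97 ± 0.69 higher, by 0.72 and 1.22. The differences of Slc7a11 and Slc1a2 were above 0 within each number, but GM-TNFa-DC 1 lay below GM-DC 2, so the groups overlapped. The probe set read for Slc1a2 had a mean of 5.00, at the dim limit. Of the 5 probe sets of Slc1a2, 3 were higher with TNFa and 2 lower. On the lower side, Slc43a2 was at 9.40 and 9.08 in GM-DC and 8.17 and 8.82 in GM-TNFa-DC (-0.74 ± 0.30). Slc36a1 was at 8.07 and 7.91 in GM-DC and 6.92 and 7.65 in GM-TNFa-DC (-0.70 ± 0.31). In the probe sets read for these 2 genes the groups did not overlap, and number 1 differed by more than number 2. The group means of all 3 probe sets of Slc43a2 were lower with TNFa. In its second probe set that was not dim, GM-DC (6.56 and 7.27) and GM-TNFa-DC (5.94 and 7.33) overlapped. Slc6a6 differed by -0.53 and -0.57 on the numbers, with the group means of 4 of 4 probe sets lower. On number 2, GM-DC and GM-TNFa-DC were level in its second probe set (9.07 in both) and in its dimmest (5.64 and 5.65). The dim genes Slc7a10 and Slc6a21 were also apart, by 0.21 and 0.27.

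**Figure D3:**
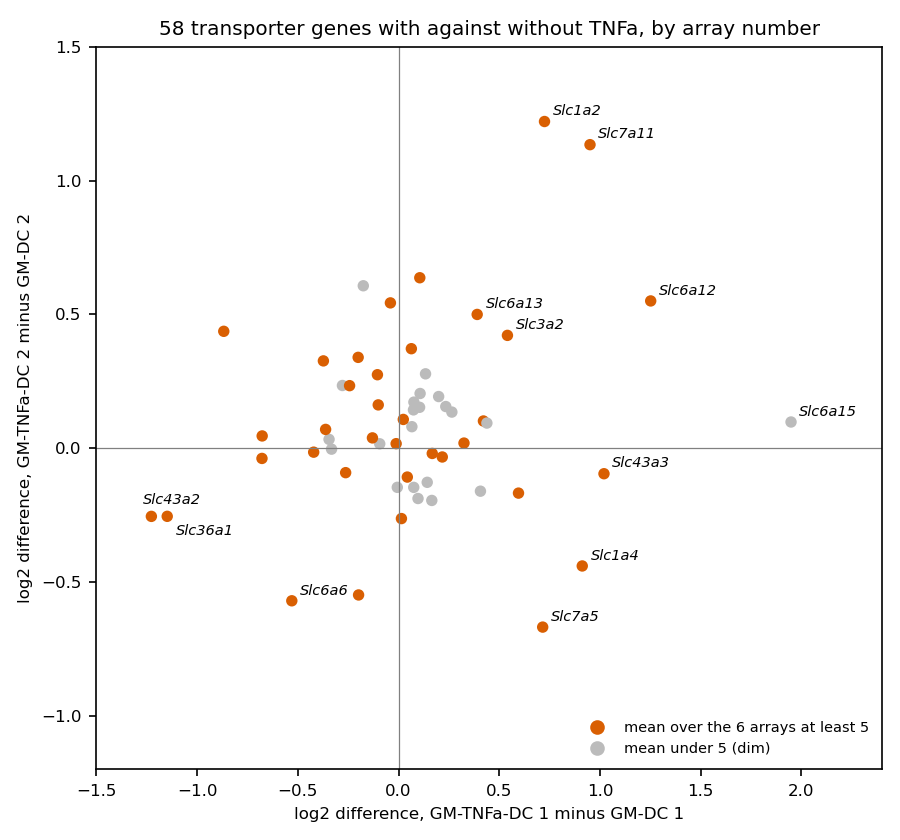
Log2 difference of GM-TNFa-DC minus GM-DC on array number 1 (x axis) and on array number 2 (y axis) for the 58 transporter genes, in orange where the mean over the 6 arrays was at least 5 and in grey where it was dim. Slc7a11 (0.95 and 1.13) and Slc1a2 (0.72 and 1.22) lie to the upper right, Slc43a2 and Slc36a1 to the lower left, and Slc6a15 (1.95 and 0.10) is high on number 1 only.

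Between the array numbers of the dendritic cells more members were called than between the groups, though in unlike models. The group comparisons above left array number out of the model. With it as a block, 8 members were called in each comparison with GM-MPP (8.11% and 11.3% of all genes), as given below. With the group in the model and the 4 dendritic cell arrays fitted, 14 of 58 members were called for number 2 minus number 1 (24.1%, against 11.8% of all genes), 9 higher (15.5%, against 6.41%) and 5 lower (8.62%, against 5.41%). Of members that were not dim it was 13 of 36 (36.1%, against 18.1%). This contrast was added after the data were seen, it leaves 1 residual degree of freedom, and the labels do not say what the numbers stand for. On the GM-MPP arrays number 2 minus number 1 lay between -0.36 and 1.25 for these 14 genes.

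The 5 members lower on number 2 were Slc7a5, Slc7a1, Slc38a2, Slc6a4 and Slc6a15. The log2 differences were -2.43 for Slc7a5, -1.83 for Slc7a1 and -0.99 for Slc38a2 (limma adjusted p = 0.0171, 0.00393 and 0.0172), and in GM-MPP they differed by 0.02, 0.22 and -0.11. Slc6a4, the serotonin transporter, was at 6.01 and 6.55 in GM-MPP, 9.46 and 4.90 in GM-DC, and 8.59 and 5.34 in GM-TNFa-DC. The number-1 dendritic arrays were thus above the progenitors and the number-2 arrays below them (-3.90 ± 0.33 for number 2 minus number 1, limma adjusted p = 0.00475). Slc6a15, a transporter of branched chain amino acids, was at 4.92 and 3.09 in GM-DC and 6.86 and 3.18 in GM-TNFa-DC, above 5 on the latter's number 1 only (-2.76 ± 0.44, limma adjusted p = 0.0234).

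Of the 9 members higher on number 2, the largest differences were in the neighbours Slc6a13 and Slc6a12 on chromosome 6, which carry GABA, betaine and taurine. Slc6a13 was at 6.00 and 6.88 in GM-MPP, 4.42 and 7.99 in GM-DC, and 4.81 and 8.49 in GM-TNFa-DC. Slc6a12 was at 5.77 and 7.02 in GM-MPP, 5.26 and 8.57 in GM-DC, and 6.51 and 9.12 in GM-TNFa-DC. Both were also higher on number 2 of the progenitors, by less (0.87 and 1.25), and in the dendritic cells by 3.63 ± 0.15 and 2.96 ± 0.21 (limma adjusted p = 0.00188 and 0.00364). The other 7 were Slc43a3 (1.98), Slc1a2 (1.57), Slc7a11 (1.54), Slc7a8 (1.20), Slc6a8 (1.18), Slc7a2 (1.15) and Slc36a2 (1.09), with limma adjusted p between 0.00554 and 0.0235.

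**Figure D4:**
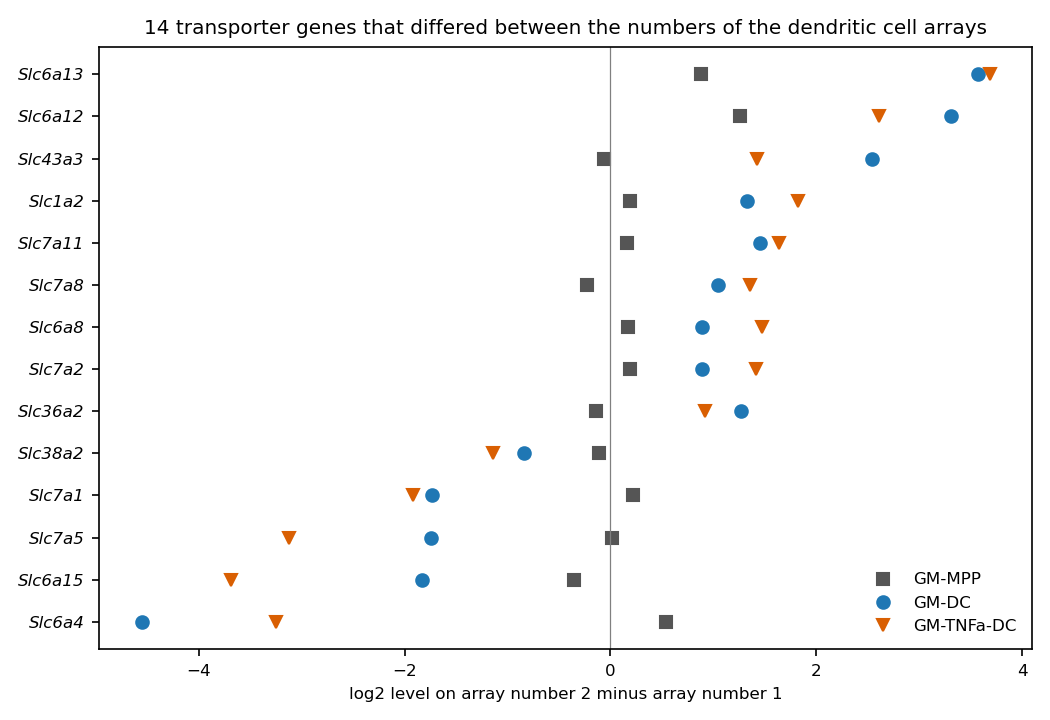
Log2 level on array number 2 minus array number 1 (x axis) for the 14 transporter genes called between the numbers of the dendritic cell arrays (y axis), with squares for GM-MPP, circles for GM-DC and triangles for GM-TNFa-DC. The GM-DC and GM-TNFa-DC points lie on the same side of 0 for every gene shown, from -4.55 for Slc6a4 in GM-DC to 3.68 for Slc6a13 in GM-TNFa-DC, and the GM-MPP points lie between -0.36 and 1.25.

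Markers of other cells also differed by array number. Of 14 macrophage markers, 5 were higher on number 2 (among them Cd14 by 4.85 and Itgam by 4.10) and 3 lower (Mrc1 by -3.43). The summed linear level of these markers was 33801 and 26965 on the number-1 and 40306 and 43570 on the number-2 dendritic cell arrays, and 10669 and 19802 in GM-MPP. Of 13 neutrophil markers 4 were higher and 5 lower, with sums of 16956 and 5726 on number 1 and 21010 and 19376 on number 2, against 100531 and 115571 in GM-MPP. Mast cell and basophil markers summed to 596 and 432 on number 1 and 377 and 429 on number 2, against 2160 and 2180 in GM-MPP. Of these 10 markers 1 was called by number (Cpa3, -1.08). Of 11 lymphoid markers none was called, with sums from 225 to 293 over all 6 arrays, and of 12 stromal markers 3 were higher, with sums from 335 to 583. The part of these cells in the transporter levels was not tested.

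Enzymes that use what these transporters bring in were read beside them. Of 33 genes of amino acid and glutathione metabolism, 4 fell in GM-DC against GM-MPP and 0 rose: glutamine synthetase Glul (-1.78), Got2 (-1.63), Shmt1 (-1.17) and Bcat2 (-1.14), with limma adjusted p between 0.0288 and 0.0428. By array number, 4 were higher and 2 lower on number 2. Arg1, the arginase that splits the arginine Slc7a2 imports, was named after its values were seen: it read 3.19 and 2.94 in GM-MPP, 3.11 and 12.78 in GM-DC, and 2.93 and 12.60 in GM-TNFa-DC. Arg1 was high only on the number-2 dendritic cell arrays (9.67 ± 0.14, limma adjusted p = 0.000237). The other arginase gene, Arg2, was between 8.07 and 8.98 on all 6 arrays. Nos2, the inducible nitric oxide synthase, was at 4.59 and 6.34 in GM-DC and 5.03 and 7.36 in GM-TNFa-DC, higher on number 2 by 2.04 (limma adjusted p = 0.00648), whereas Slc7a2 was above 10 on both numbers.

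Genes that cells induce through ATF4 when amino acids run short were split. Of 24 measured, 2 rose in GM-DC against GM-MPP, Atf3 (3.57 ± 0.26, limma adjusted p = 0.00519) and Nupr1 (1.17), and 4 fell: Cth (-4.11 ± 0.27, limma adjusted p = 0.00408), Shmt2 (-3.12), Psat1 (-3.09) and Psph (-2.61). The 4 that fell encode enzymes of serine, one-carbon and cysteine metabolism. GM-TNFa-DC had 2 higher and 4 lower as well. On number 2 of the dendritic cells 9 were lower, among them asparagine synthetase Asns (-1.80, limma adjusted p = 0.00393), Phgdh (-2.03) and Atf4 itself (-0.84, 0.0152), and 4 were higher, among them Vldlr (2.27) and Ddit4 (1.98). The members Slc7a5, Slc7a1 and Slc38a2 were lower on the same arrays, and Slc7a11 was higher there. Among the other members with TGATGNAA in a promoter, Slc1a4 (-0.96) and Slc7a7 (-0.31) lay lower there and the dim Slc6a21 (0.17) higher, without a call. No promoter was held for Slc7a5, and a link between motif and level was not tested.

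Of 19 aminoacyl-tRNA synthetases, which charge tRNAs with amino acids, all had differences below 0 in GM-DC against GM-MPP, with a median of -0.93, and 2 fell, Vars (-1.67) and Kars (-1.10). In GM-TNFa-DC 5 fell, and on number 2 of the dendritic cells 9 were lower and 0 higher. Of 32 genes through which mTORC1 senses amino acids, 1 fell in GM-DC, Itfg2 (-1.33, limma adjusted p = 0.0221), a part of the KICSTOR complex, and 0 rose. In GM-TNFa-DC, Itfg2 and Sesn1 (-1.02) fell. Proliferation genes, which demand amino acids, had differences below 0 in 19 of 19 in GM-DC, but only Mcm7 passed. On number 2 of the dendritic cells 18 of the 19 were higher, the arrays on which Slc7a5 and Slc7a1 were lower.

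Of 13 Nrf2 genes, which answer oxidative stress, 0 passed in GM-DC against GM-MPP, and in GM-TNFa-DC Nfe2l2 rose (1.19) and Taldo1 fell (-1.23). On number 2 of the dendritic cells 5 were higher and 0 lower, among them Hmox1 (2.28), Nqo1 (1.63), Gsr (1.26) and the member Slc7a11. Of 21 transporters of amino acids and peptides from other families, 1 rose in GM-DC, Slc15a3, an endolysosomal carrier of histidine and peptides (3.27 ± 0.52, limma adjusted p = 0.0332), and 2 fell, the mitochondrial aspartate and glutamate carrier Slc25a12 (-1.94) and the vesicular nucleotide carrier Slc17a9 (-1.43). The same numbers, 1 higher and 2 lower, were found in GM-TNFa-DC. None of the genes of these lists was called between GM-TNFa-DC and GM-DC.

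The 22 dim members had differences between -0.17 and 0.51 in GM-DC against GM-MPP, between -0.15 and 1.41 in GM-TNFa-DC against GM-MPP and between -0.17 and 1.02 in GM-TNFa-DC against GM-DC, and none was called in these comparisons in the model without array number. Slc6a15 had the highest value in the latter 2 comparisons and was the dim member called by array number. Of members that were not dim, Slc38a10 was between 9.10 and 9.53 on all 6 arrays. The neuronal glutamate transporter gene Slc1a1 and the GABA transporter gene Slc6a11 were dim, as were the intestinal and kidney carriers Slc6a18, Slc6a19 and Slc7a9.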

How the data were processed

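RNA from 3 groups of 2 samples was measured on Affymetrix arrays. The deposited log2 values came from RMA per the submitters' processing notes and Bioconductor per the labels. No version is given in the sources used here, nor which arrays were scaled jointly, and the log2 scale was read from the values (1.89 to 14.4). Of 45101 probe sets, 64 controls were left out, 34945 carried 1 gene symbol and 932 several. One linear model per gene over all arrays (limma 3.58.1, R 4.3.3, trended prior, 3 residual degrees of freedom) gave the differences and moderated standard errors (±), adjusted over 18193 genes by Benjamini-Hochberg with 0.05 as threshold. An exact permutation test of 2 against 2 arrays cannot pass. The members, the gene and marker lists, the tests and the rule for named genes (members called, the 3 highest and 3 lowest without overlap per comparison, a panel of 24, and up to 3 called genes per list) were chosen with earlier results of these data known. Arg1, Arg2, Nos2 and further genes named by array number stand outside that rule. The model was tested on simulated data. Python 3.11.15 and matplotlib 3.10.9 made tables and plots.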

Additional observations from a re-analysis of the deposited data

How the results depend on the processing

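With array number as a block, 8 members were called in GM-DC against GM-MPP (6 higher, 2 lower) and 8 in GM-TNFa-DC against GM-MPP (5 higher, 3 lower), including every member called without it. Of all genes 8.11% and 11.3% were called. Gained were Slc6a6, Slc6a8, Slc6a9 and Slc7a7 in GM-DC and Slc6a8, Slc6a9 and Slc7a11 in GM-TNFa-DC (limma adjusted p of 0.0198 and 0.0281 for Slc6a8). The numbers did not pair the samples by any label, and same-numbered deviations correlated at 0.105 between GM-MPP and GM-DC, 0.0719 between GM-MPP and GM-TNFa-DC and 0.806 between the dendritic groups. With the block on only the 4 arrays compared, an alternative chosen after seeing the data, 3 members were called in GM-DC (1.52% of all genes), where Slc1a5 was lost (limma adjusted p = 0.0971), and 2 in GM-TNFa-DC (1.43%), where Slc36a4 (0.0542), Slc1a5 (0.0737) and Slc38a1 (0.106) were lost. Each fit without 1 array called fewer of all genes than the full fit in both comparisons with GM-MPP, as given above. In GM-TNFa-DC against GM-DC the count was 0 under every alternative, for the members and for all genes. Second quantile normalization, median centring, dim genes left out, the mean of probe sets and no intensity trend gave 13 to 15 members between the array numbers, and 9.96% to 19.6% of all genes.

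Some differences that passed no test changed sign. In GM-DC against GM-MPP, Slc1a4 was at -0.0096 on second quantile normalization, -0.0058 on median centring and -0.17 with the mean of probe sets, and with that mean Slc1a3 was at 0.030. With it Slc38a6 was also at 0.023 in GM-TNFa-DC against GM-DC, and Slc1a3 at 0.13 in GM-TNFa-DC against GM-MPP. Leaving out 1 array gave, in GM-DC against GM-MPP, -0.21 to 0.30 for Slc1a4, -0.15 to 1.18 for Slc1a2, -0.12 to 0.29 for Slc36a1, -1.13 to 2.18 for Slc6a12 and -0.31 to 0.060 for Slc43a2. In GM-TNFa-DC against GM-DC it gave -0.60 to 0.17 for Slc1a5, -0.42 to 0.12 for Slc36a4, -0.40 to 0.35 for Slc38a6, -0.34 to 1.08 for Slc7a2, -0.81 to 1.73 for Slc43a3 and -0.75 to 2.56 for Slc6a12. In GM-TNFa-DC against GM-MPP it gave -0.53 to 1.10 for Slc1a4 and -0.25 to 0.24 for Slc1a3. The cause was not tested. Of the single-gene values under alternatives, 852 kept direction and side of the threshold, 42 lost a call, 15 gained one and these 27 changed sign. Only the 4 calls in GM-DC and the 5 in GM-TNFa-DC against GM-MPP could be lost, each under 8 settings and 6 fits without 1 array. Most of the 852 values had no call to lose. With 2 arrays a group, levels near background limit what can be seen.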
